A study of Mus musculus with 2 samples.

Results

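Coagulation and fibrinolysis genes encode the proteins that start, limit and dissolve blood clots. The genes described here are F3, Tfpi, Thbd, Procr, F2r, Plat, Plau, Plaur, Vwf and Thbs1, taken by name from the platform annotation, and they are 10 of the 12393 genes with a name of their own on the array. They were read by 15 probe sets, a probe set being a group of short oligonucleotides against 1 or more transcripts. Of these genes, 6 had 1 probe set while 4 had several. RNA came from dissected implantation sites, pieces of pregnant uterus that each contain 1 embryo with surrounding maternal tissue, on day 8 of pregnancy. The Cbs null group was 1 array from homozygous Cbs null females, and the control group was 1 array from control females. All females were 4 months old and of the mixed C57Bl/6J X OLA129 background, and Cbs encodes cystathionine beta-synthase, which removes homocysteine by joining it to serine. The study asked how gene expression at these sites differs when the mother lacks this enzyme. The labels do not say whether animals or sites were pooled, nor the genotype of the conceptus.

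In textbook outline, tissue factor, the product of F3, starts coagulation when it meets its partner factor in plasma, and the chain of reactions ends in thrombin, which makes fibrin and activates platelets. Thrombin bound to thrombomodulin instead activates protein C on its endothelial receptor, which shuts the chain down, while plasmin made from plasminogen dissolves fibrin. Decidual stroma is known for abundant tissue factor, which guards against bleeding as trophoblast enters maternal vessels, and trophoblast in mice carries thrombomodulin and the protein C receptor at the border with maternal blood.

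None of the members that gave a clear signal was 1.5-fold apart between the arrays. F3, Procr, Plat, Vwf and Thbs1 were slightly higher on the Cbs null array, and F2r and Thbd were slightly lower. The probe sets of Tfpi differed in direction. The one member difference near 2-fold was that of Plaur, the urokinase receptor, which was lower on the Cbs null array but dim on both. Each genotype had a single array, so the differences describe these 2 arrays, have no replicate check and could not be tested. Because whole sites were profiled, fewer cells of a type and less RNA per cell cannot be told apart. Signals are the deposited linear intensities, and signals of different probe sets are not on a common scale, so no gene's level is set against another's. Summed signals of marker lists weigh bright probe sets most and are compared only between the arrays. Log2 ratios are Cbs null over control.

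A probe set passed the signal filter when its mean over both arrays was at least 70.5, the median over all probe sets, and 8 of the 10 members passed. The members that did not pass were Plaur, just under the filter at a mean of 67.4, and Plau. The dimmest member probe set above the filter was the second one of Thbs1, at a mean of 78.3. Among all 7079 genes above the filter, the Cbs null array was higher by 1.5-fold or more in 2.46% and lower by as much in 1.33%, while it was higher by 2-fold or more in 0.622% and lower by as much in 0.283%. Of the 8 members above the filter, 0 were 1.5-fold higher and 0 were 1.5-fold lower, which at this number of genes is near that background. Their median log2 ratio was 0.15, beside 0.02 for all genes above the filter, and 5 of 8 had a ratio above 0, beside 55.0% of all genes. The sizes, without sign, had a median of 0.20 for the members and 0.14 for all genes.

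**Figure D1:**
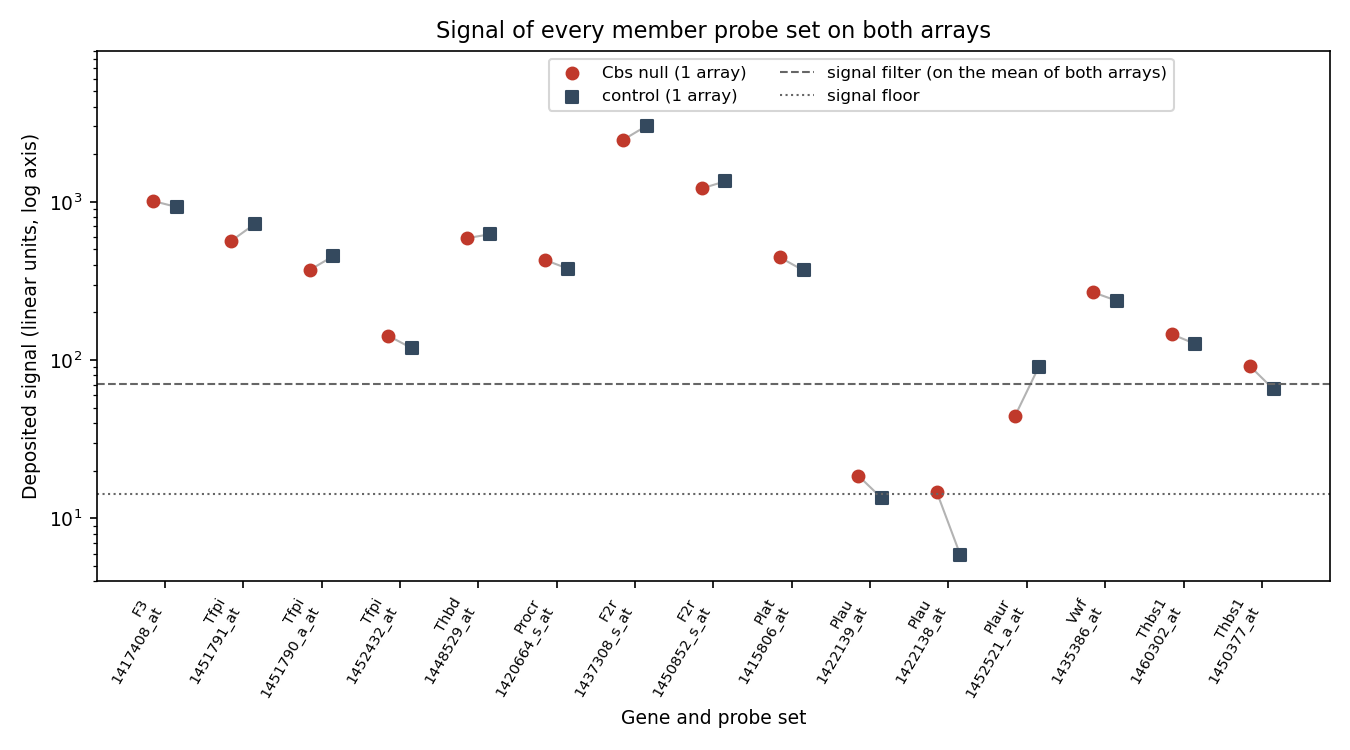
Deposited signal (linear units on a log axis) of the 15 member probe sets on the Cbs null array (circles) and the control array (squares), with the signal filter of 70.5 (dashed) and the floor of 14.3 (dotted). Most pairs lie close together, Plaur is split around the filter with 44.5 on the Cbs null array and 90.2 on the control array, and the Plau probe sets lie around the floor.

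The ratio of tissue factor was opposite in sign to that of the brightest probe set of its inhibitor. F3, the cell surface initiator of coagulation, read 1012.2 on the Cbs null array and 928.1 on the control array in its only probe set (1417408_at), a log2 ratio of 0.13. Tfpi, tissue factor pathway inhibitor, which blocks the complex that tissue factor forms, read 567.6 on the Cbs null array and 725.7 on the control array in its brightest probe set (1451791_at). That log2 ratio of -0.35 was the lowest of any member above the filter, equal to 1.28-fold more signal on the control array. A further Tfpi probe set (1451790_a_at) read 371.5 on the Cbs null array and 454.0 on the control array, with a log2 ratio of -0.29. The remaining one (1452432_at) went the other way, at 142.7 on the Cbs null array and 119.1 on the control array, with a log2 ratio of 0.26.

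The Tfpi probe sets thus did not give 1 direction for the gene. The 2 with the higher signal differed from each other by 0.07 in log2 ratio, and the brightest differed from the third by 0.62. Over the 2284 genes with several probe sets above the filter, the log2 ratios of the brightest pair differed by a median of 0.16, and 95% of them by 0.58 or less, which is the only repeated measure these arrays hold. The brightest pair had the same sign in 1415 of these 2284 genes. That share covers genes with ratios of any size and does not measure agreement at ratios like those of F2r and Thbs1 below. A shared sign in their 2 probe sets is not taken to settle the direction. Which Tfpi transcripts each probe set reads is not known here. The log2 ratio of F3 exceeded that of the brightest Tfpi probe set by 0.48. The limit of 0.58 holds for probe sets of 1 gene and does not measure a gap between genes.

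Receptors of the protein C pathway differed little in signal. Thbd, thrombomodulin, which turns thrombin from a clotting enzyme into the activator of protein C, read 589.2 on the Cbs null array and 623.8 on the control array. Its log2 ratio of -0.08 was the smallest in size of all members above the filter. Procr, the endothelial protein C receptor that presents protein C to thrombomodulin, read 429.6 on the Cbs null array and 377.3 on the control array, with a log2 ratio of 0.19. Its single probe set (1420664_s_at) is of a kind that may match several transcripts. The ratios of this pair were of opposite sign and 0.27 apart.

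F2r, the protease-activated receptor that thrombin cleaves on endothelium and fibroblasts, was lower on the Cbs null array in both of its probe sets. The brighter one (1437308_s_at) read 2465.3 on the Cbs null array and 3024.3 on the control array, a log2 ratio of -0.29. The other (1450852_s_at) read 1214.3 on the Cbs null array and 1347.3 on the control array, a log2 ratio of -0.15. Both probe sets of F2r are also of the kind that may match several transcripts. The difference of 0.14 between them was close to the median gap between probe sets of 1 gene.

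Thbd, Procr, Tfpi and Vwf are among the members that endothelium is known to express, so endothelial markers are given beside them. Of 15 endothelial markers on the array 14 passed the filter, 11 had a ratio below 0 and none was 1.5-fold apart, with a median of -0.16 and a range of -0.36 to 0.26. Their summed signal was 4387.8 on the Cbs null array and 4907.9 on the control array, and Erg was under the floor on both. The brightest were Cd34 at -0.20, Plvap at -0.36 and Esam at -0.06. The range is for brightest probe sets, and another Flt1 probe set above the filter had -0.57. Among the 4 members, Tfpi (brightest probe set) and Thbd lay below 0 with most of these markers, while Procr and Vwf lay above 0. F2r, which thrombin cleaves on endothelium, also lay below 0. The split of signs therefore depends on which members are set beside the markers. The part of vessel content in these ratios was not tested.

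The plasminogen activators and the urokinase receptor act in the plasmin system, which dissolves fibrin and helps cells cross matrix. They differed most in signal quality. Plat, tissue plasminogen activator, the main enzyme that turns plasminogen into plasmin on fibrin, read 445.3 on the Cbs null array and 368.8 on the control array. Its log2 ratio of 0.27, or 1.21-fold, was the highest among brightest probe sets of members above the filter. Plau, urokinase, the activator that acts at cell surfaces, gave almost no signal. One probe set (1422139_at) read 18.6 on the Cbs null array and 13.4 on the control array, and the other (1422138_at) read 14.7 on the Cbs null array and 5.9 on the control array. A floor of 14.3, the 25th percentile of signal, replaced any value under it, which includes both control values of Plau. Its log2 ratios of 0.38 and 0.04 rest on the floor and give no measured difference.

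Plaur, the receptor that holds urokinase at the cell surface, had the largest difference of any member. Its probe set (1452521_a_at) read 44.5 on the Cbs null array and 90.2 on the control array, a log2 ratio of -1.02, so that the control array gave 2.03 times the signal. Neither value was at the floor, but the mean of 67.4 was under the filter. Dim probe sets vary more, and among the 2039 within 5 percentiles of Plaur in mean signal the central 95% of log2 ratios ran from -0.66 to 0.86. In that group 3.63% were lower on the Cbs null array by 1.5-fold or more, and 0.49% by 2-fold or more. With the filter lowered to the 25th percentile Plaur was the 1 member of 10 that was 1.5-fold lower, beside 3.67% of all genes, and with no filter that share was 2.95%. Plaur was the one member probe set outside the central 95% of probe sets of like signal, and of the 12 member probe sets above the filter 0 were outside it. By construction 95% of probe sets of like signal lie inside that range, so 1 of 15 outside is near the background share. A single probe set on 1 array per genotype carries this difference.

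Plaur is known in macrophages and other leukocytes as well as in stroma and trophoblast, so leukocyte markers are given beside it. All 10 uterine natural killer cell markers above the filter, of 11 on the array, had a ratio below 0, with a median of -1.02 and a range of -1.46 to -0.50. One of them, Il2rb at -0.85, passed through its control value, at 61.1 on the Cbs null array and 110.5 on the control array. The other Il2rb probe set, also above the filter, had -0.32. The summed signal of the list was 8714.0 on the Cbs null array and 18978.3 on the control array. The brightest were Gzmd at -1.35, Gzmg at -1.07 and Gzme at -1.13, and Gzmc at -1.46 and Gzma at -1.16 were also at least 2-fold lower, while Ncr1, below the filter, had 0.26. The granzymes from Gzmc to Gzmg are close copies of each other, and their probe sets may share signal. Of 8 macrophage and monocyte markers 7 passed and 5 of them had a ratio above 0, with a median of 0.30 and a range of -0.21 to 0.83. The brightest were Lyz2 at 0.54, Csf1r at 0.21 and Mrc1 at 0.30, and Cd68 was the highest. The summed signal of the list was 4288.3 on the Cbs null array and 3381.9 on the control array, and none of the 8 was at the floor. The part of leukocyte content in the Plaur ratio was not tested.

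**Figure D2:**
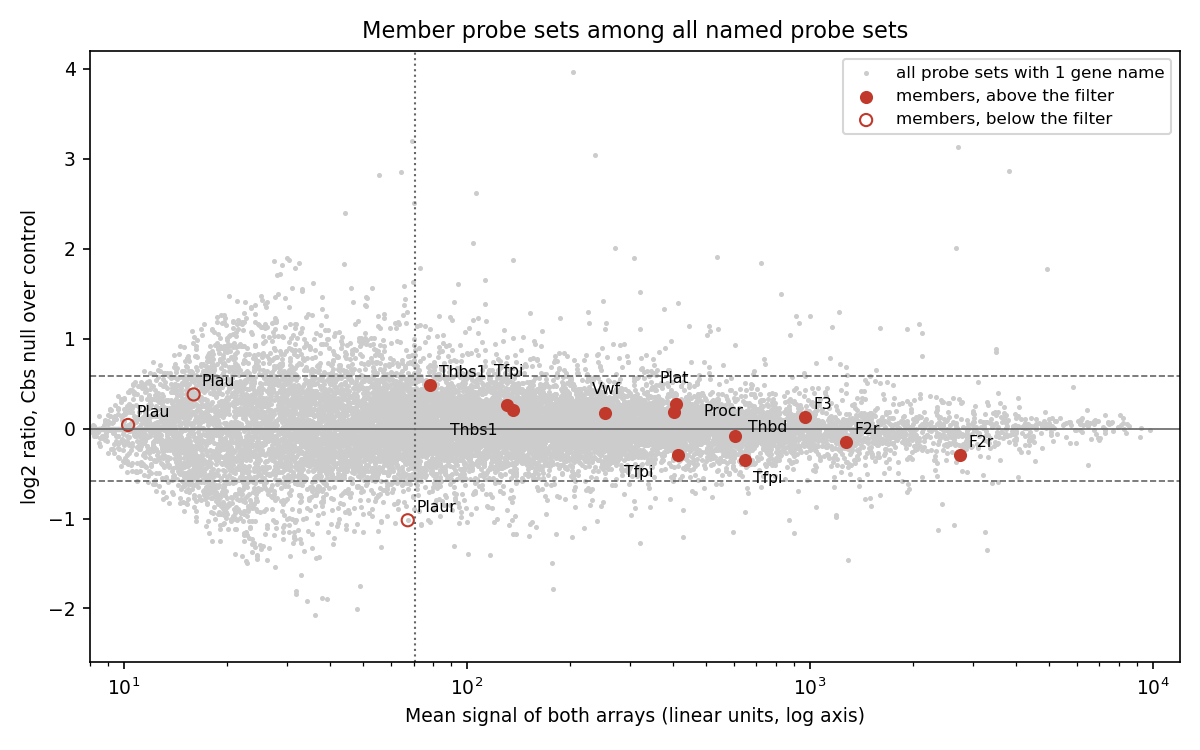
Log2 ratio of Cbs null over control against the mean signal of both arrays (log axis) for all probe sets with 1 gene name (grey) and for the members (filled above the filter, open below it), with dashed lines at 1.5-fold and a dotted line at the filter of 70.5. The members above the filter lie between -0.35 and 0.48, and Plaur lies at -1.02 just left of the filter, where the grey cloud is wider.

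Vwf and Thbs1, which act in platelet adhesion and in matrix, were slightly higher on the Cbs null array in every probe set. Vwf, von Willebrand factor, the large adhesive protein made by endothelium and megakaryocytes, read 267.7 on the Cbs null array and 237.0 on the control array, a log2 ratio of 0.18. Thbs1, thrombospondin 1, a matrix and platelet granule protein that restrains vessel growth, read 145.8 on the Cbs null array and 126.6 on the control array in its brighter probe set (1460302_at), a log2 ratio of 0.20. The other Thbs1 probe set (1450377_at) read 91.3 on the Cbs null array and 65.3 on the control array. Its log2 ratio of 0.48 was the highest of the 12 member probe sets above the filter, which it passed through its Cbs null value. A further probe set that the annotation assigns to both Thbs1 and Pald1 (1421811_at) was not counted as a member, and it read 707.4 on the Cbs null array and 682.7 on the control array, a log2 ratio of 0.05.

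Platelets carry Vwf and Thbs1 in their granules, and 8 of 11 platelet and megakaryocyte markers were read. Pf4, platelet factor 4, was the 1 marker above the filter, at 457.4 on the Cbs null array and 378.2 on the control array, a log2 ratio of 0.27. The summed signal of the list was 586.6 on the Cbs null array and 519.4 on the control array, with 5 markers under the floor on the Cbs null array and 4 on the control array. The part of platelets and megakaryocytes in the Vwf and Thbs1 ratios was not tested.

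Of 42 other genes of the pathway read by the array, 18 passed the filter. Of these, 3 were higher and 1 lower on the Cbs null array by 1.5-fold or more, with none 2-fold apart. Among all genes above the filter, 2.46% were higher and 1.33% lower by as much. The lists were chosen with earlier results of these data known, and this contrast was not tested. The median log2 ratio of the 18 genes was 0.05. Some genes of these lists below the filter were at least 2-fold apart in their brightest probe set. They were F5 at 1.38, Serpinf2 at 1.18, F7 at -1.07 and Serpinc1 at -1.27. Their signals were dim, as for Plaur. F5 had 1.33 in its other probe set, also below the filter, and the control value of Serpinf2 was under the floor. Of 19 genes for procoagulant factors and their processing 6 passed and none was 1.5-fold apart, with a range of -0.58 to 0.17. The lowest was Kng1, which passed the filter through its control value and had 0.50 in its other probe set, below the filter. The brightest were Vkorc1, which recycles vitamin K for the carboxylation of clotting factors, at 0.05, and F13a1, the fibrin cross-linking factor that macrophages also make, at -0.03. Genes for the liver-made fibrinogen chains Fga, Fgb and Fgg did not pass, and nor did Plg, plasminogen.

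Tfpi2, a relative of Tfpi that inhibits plasmin and is known from placenta, was the most different of the 3 anticoagulant genes above the filter. It read 929.2 on the Cbs null array and 544.3 on the control array, 1.71-fold higher with a log2 ratio of 0.77, opposite in sign to the brightest Tfpi probe set. The other anticoagulant genes above the filter were Pros1, protein S, at 0.05 and Anxa5, annexin A5, which covers exposed phospholipid, at 0.05. Of the fibrinolysis genes 4 of 7 on the array passed and lay between -0.12 and 0.09 in their brightest probe sets. The brightest were Anxa2, at -0.07, and S100a10, at 0.05, which together form a plasminogen receptor on cell surfaces. The other S100a10 probe set, also above the filter, had -0.19. The other protease-activated receptors, F2rl2 and F2rl3, did not pass.

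Relatives of Thbs1 had ratios of both signs. Thbs3 read 259.8 on the Cbs null array and 152.7 on the control array, a log2 ratio of 0.77. Thbs2, which like Thbs1 restrains vessel growth, read 98.1 on the Cbs null array and 60.6 on the control array, a log2 ratio of 0.69, and it passed the filter through its Cbs null value. The other Thbs2 probe set was below the filter, at -0.22. Thbs4 read 175.0 on the Cbs null array and 276.4 on the control array, a log2 ratio of -0.66. The thrombospondin receptors Cd36 and Cd47 had 0.01 and -0.08 in their brightest probe sets.

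**Figure D3:**
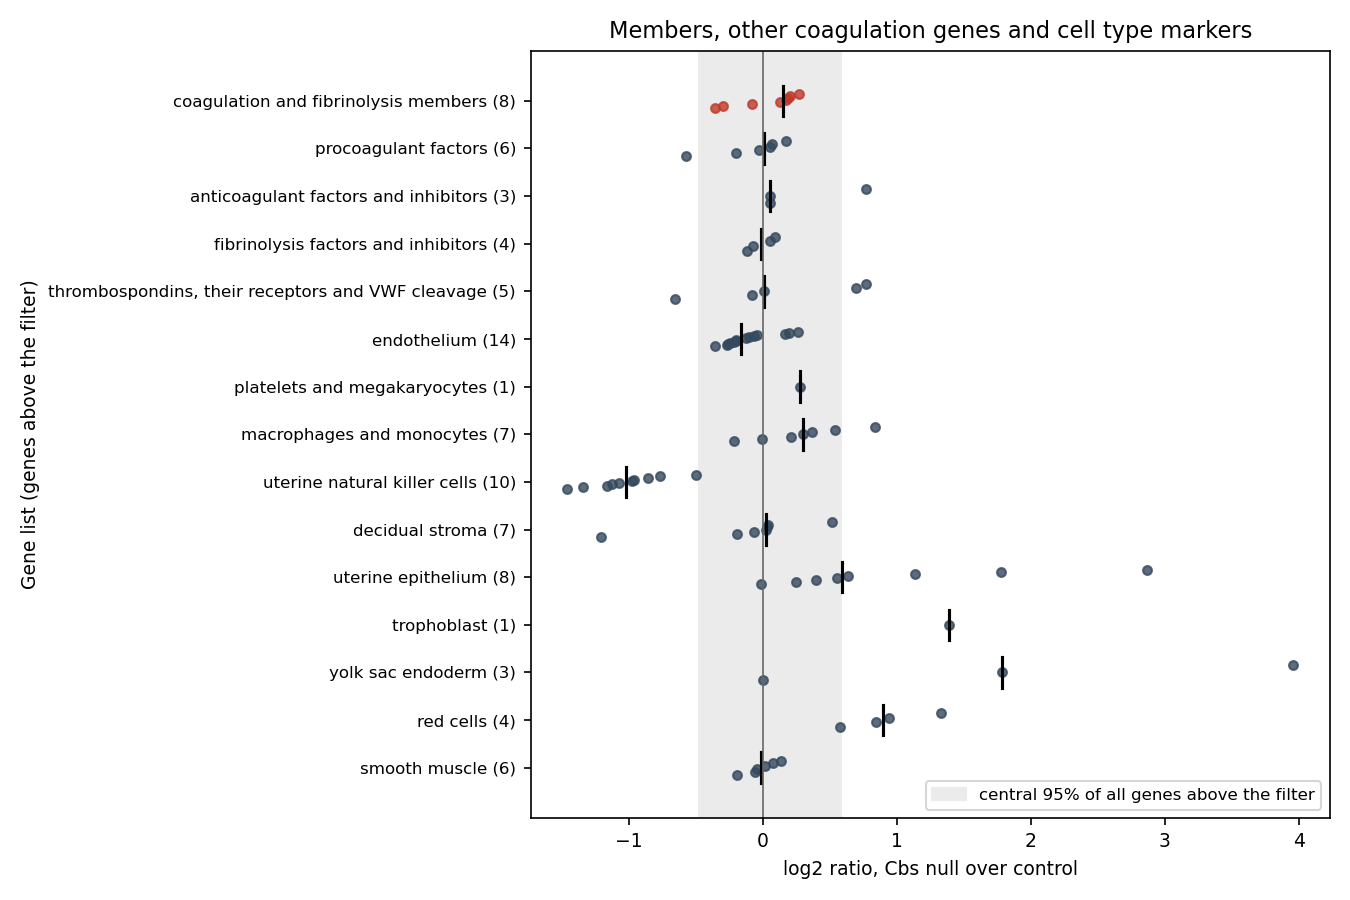
Log2 ratio of Cbs null over control for each gene above the filter in the member list (top), the other pathway lists and the cell type marker lists, with black bars at list medians and grey shading for the central 95% of all genes above the filter, -0.48 to 0.58. All 8 members lie inside the shading, as do all 14 endothelial markers, while natural killer cell markers lie to the left and epithelial, trophoblast, yolk sac and red cell markers reach to the right.

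Markers of other tissues in a site also stood at different levels. Decidual stroma markers, which mark the cells known for tissue factor, had a median of 0.02 over 7 of 8 genes, with Prl8a2 at 0.52, Hoxa10 at 0.02, Hoxa11 at -0.19 and Bmp2 at -1.21. Smooth muscle markers had a median of -0.01 over 6 genes and a range of -0.19 to 0.13, the brightest being Acta2 at 0.02, Tagln at -0.06 and Myh11 at 0.07. Uterine epithelium markers had a median of 0.59 over 8 of 9 genes and a range of -0.02 to 2.86. Their summed signal was 16835.0 on the Cbs null array and 4976.4 on the control array, with Prss29 at 1.78, Prss28 at 2.86, Krt18 at 0.64 and Calb1, which passed the filter through its Cbs null value, at 1.14. Without Prss28 and Prss29 the other 7 markers summed to 2522.6 on the Cbs null array and 1837.4 on the control array. Trophoblast and yolk sac endoderm markers were mostly dim, while red cell markers were mostly above the filter. Hbb-y read 4490.3 on the Cbs null array and 2494.9 on the control array. Tpbpa was the only 1 of 4 trophoblast genes above the filter, at 1.39, 3 of 8 yolk sac endoderm genes passed, with Afp at 3.96 and Ttr at 1.78, both through their Cbs null value, and Rbp4 at 0.00, and 4 of 5 red cell genes had a median of 0.90, with Hbb-y at 0.85, Hba-x at 1.33 and Hbb-bh1 at 0.94. The part of tissue content in the member ratios was not tested. Cbs itself read 23.8 and 22.3 on the Cbs null array and 30.3 and 29.9 on the control array in its 2 probe sets, too dim to check the genotype.

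**Figure D4:**
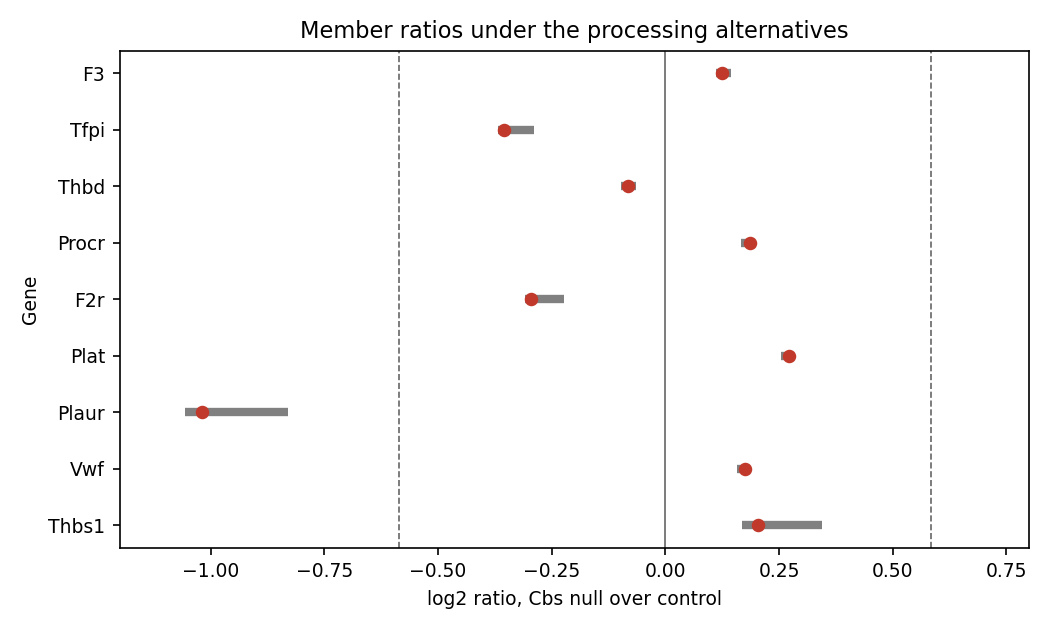
Log2 ratio of Cbs null over control for each member except Plau as reported (points) and the range over the processing alternatives (bars), with dashed lines at 1.5-fold. The ratios kept their sign under the alternatives run, Plaur ranged from -1.06 to -0.83, and Thbs1 ranged from 0.17 to 0.34.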

How the data were processed

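Each probe set has 1 deposited linear intensity per array, which the authors computed in GCOS (1.4), per the submitters' processing notes. Labelled cRNA was made from 2 microg of total RNA, per the labels' protocols. The algorithm, detection calls and genome build are not stated there, so no coordinates are printed. The 2% trimmed mean was 200.1 on both arrays, so no scaling was added, and the median signal was 71.4 on the Cbs null array and 68.8 on the control array. Of 22690 probe sets 64 controls were left out, 20380 of the others had 1 gene name, 691 several and 1555 none. Names were updated through gene identifiers (20351 matched) in RefSeq GRCm38.p6 tables. Values under 14.3 were raised to it. Each gene was represented by its brightest probe set, and all member probe sets are printed. The members and lists were chosen with earlier results of these data known. Named were all members, list genes at least 1.5-fold apart or else the 2 brightest, and from marker lists the 3 brightest and those 2-fold apart, with a few others as examples chosen after their values were seen. Scripts (Python 3.11) were tested on simulated data. The number of arrays limits the precision.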

Additional observations from a re-analysis of the deposited data

How the results depend on the processing

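Other normalizations (quantile, median centring, loess), floors, a pseudocount, filters and ways to represent a gene were tried. The median log2 ratio of the members ran from 0.13 to 0.15 over 11 alternatives. The number at least 1.5-fold lower was 1 in place of 0 with the filter at the 25th percentile and 1 with no filter, because Plaur then passed. The number at least 1.5-fold higher was 0 under each of them. Plaur was under 2-fold, at -0.83, with a pseudocount. No single-gene ratio of the 9 members other than Plau changed sign or moved by more than 0.30, the SD of the difference between probe sets of a gene, under the alternatives run. That limit is wide, being larger in size than most of these ratios. The other floors left all of these ratios unchanged. No alternative took a dimmer probe set alone, such as the Tfpi one at 0.26. F2r and Procr had no value once probe sets of the kind open to several transcripts were dropped, and Plaur had none in the median over probe sets above the filter. No paired analysis was possible because each genotype had 1 array. Signal over background limits Plau and Plaur.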
